A study of Homo sapiens with 20 samples.

Results

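DDB2, XPC, POLH, RRM2B and FANCC are DNA repair and nucleotide supply genes that are known as targets of the transcription factor p53. They were chosen by gene symbol, with earlier results of these data known. They are 5 of the 26485 gene rows in each of the 2 deposited tables, and all 5 were among the 15958 rows that passed a filter on low values and were tested. The data are RNA sequencing of nuclei from HCT116, an established line of human colorectal carcinoma, after ribosomal RNA depletion. Every library came from cells electroporated in the Neon system and then kept for 3 hours in medium with 0.1% DMSO. The conditions were 10 µM Nutlin-3a with 10 µM of a bivalent stapled peptide (Nutlin-3a plus peptide), 10 µM Nutlin-3a with water (Nutlin-3a plus water), the peptide with DMSO alone (DMSO plus peptide), and water with DMSO alone (DMSO plus water). Wells of cells that received the peptide had another 200 nM of it in the medium. There were 20 libraries, 2 per condition from experiment 1 and 3 per condition from experiment 2, all of 1 cell line. The labels do not say whether replicates were separate cultures, so p-values measure the spread between these libraries, which may be technical.

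Nutlin-3a occupies the pocket of the ubiquitin ligase MDM2 that holds p53, so that p53 accumulates and activates its targets. The peptide was designed to compete with p53 for Mediator, which carries signals of DNA-bound activators to the RNA polymerase II machinery. The comparisons ask how p53 target RNA responds to Nutlin-3a, and whether the peptide changes that response. Of the 5 genes, DDB2 encodes the damage-binding subunit that detects ultraviolet lesions in chromatin, and XPC encodes the sensor of helix distortion that starts global genome nucleotide excision repair. POLH encodes DNA polymerase eta, which copies past ultraviolet photoproducts. RRM2B encodes the p53-inducible small subunit of ribonucleotide reductase, the enzyme that makes deoxyribonucleotides. FANCC encodes a subunit of the Fanconi anaemia core complex, which acts on DNA interstrand crosslinks.

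The promoter sequences of DDB2, XPC and POLH are shown because these genes had the largest differences with Nutlin-3a among the 5. They are RefSeq windows of build GRCh38.p14 from 250 bases before to 50 bases after an annotated start, given 5′ to 3′ on the gene's strand, and capitals mark exact matches of the p53 half-site consensus.
DDB2, chr11:47214724-47215023, plus strand: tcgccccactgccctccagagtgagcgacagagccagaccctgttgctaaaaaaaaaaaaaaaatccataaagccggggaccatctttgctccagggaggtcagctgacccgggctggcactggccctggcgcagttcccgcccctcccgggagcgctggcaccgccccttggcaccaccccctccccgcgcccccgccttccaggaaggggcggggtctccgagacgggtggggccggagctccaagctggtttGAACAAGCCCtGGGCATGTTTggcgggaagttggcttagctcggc
XPC, chr3:14178552-14178851, minus strand: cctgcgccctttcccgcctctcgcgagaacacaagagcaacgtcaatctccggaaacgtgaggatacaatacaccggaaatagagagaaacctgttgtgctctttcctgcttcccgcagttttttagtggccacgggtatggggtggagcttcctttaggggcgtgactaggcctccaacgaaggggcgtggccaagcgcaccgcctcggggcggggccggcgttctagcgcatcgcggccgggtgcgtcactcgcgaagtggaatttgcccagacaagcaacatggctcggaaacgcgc
POLH, chr6:43575935-43576234, plus strand: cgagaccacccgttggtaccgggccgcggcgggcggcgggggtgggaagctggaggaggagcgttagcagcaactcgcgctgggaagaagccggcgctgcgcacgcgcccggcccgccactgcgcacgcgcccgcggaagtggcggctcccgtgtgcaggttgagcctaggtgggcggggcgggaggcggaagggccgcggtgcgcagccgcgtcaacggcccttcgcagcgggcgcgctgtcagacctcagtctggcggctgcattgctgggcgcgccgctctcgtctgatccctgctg
The DDB2 window held 2 exact half-sites with 1 base between them, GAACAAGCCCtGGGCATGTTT, at chr11:47214979-47214999. This run of 21 bases began at base 6, with the annotated start as base 1. No exact match was in the XPC or POLH window, in the other DDB2 window or in either of the 2 FANCC windows. The half-site is 10 bases long and was searched on both strands, on which the consensus reads alike. Of all 35116 promoter windows of 300 bases, 6.63% held an exact half-site, 0.308% held 2 or more, and 0.0285%, 10 windows, held 2 of them 0 to 13 bases apart. A match is a description of the letters and not of binding, and no sequence is shown for RRM2B.

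The rows covered, on build hg38, chr11:47214942-47238849 for DDB2 (plus strand, NM_001300734), chr3:14145148-14178568 for XPC (minus strand, NM_004628), chr6:43576141-43614557 for POLH (plus strand, NM_001291969), chr8:102204501-102238822 for RRM2B (minus strand, NM_001172477) and chr9:95099054-95249291 for FANCC (minus strand, NM_001243743). The FANCC row spans 150 kb of a gene of 328 kb in GENCODE, so its values leave out the upstream part of the gene, and neither FANCC promoter window lies at the start of the row. The library kit was directional, but the strand setting of the counting is not stated, so reads of overlapping genes on the other strand cannot be told apart. POLH overlaps GTPBP2 by 9242 bases and the antisense gene POLH-AS1 by 3133 bases. XPC overlaps LSM3 by 211 bases, AC090004.1 by 3105 bases and the antisense gene AC093495.1 by 20831 bases. DDB2 overlaps the antisense gene AC018410.2 by 1534 bases. FANCC overlaps the antisense gene AL354893.2 by 754 bases and the pseudogene AL354893.1 by 348 bases. Of these other genes, only GTPBP2 and LSM3 have rows. With Nutlin-3a plus water against DMSO plus water, the log2 change was -0.09 ± 0.17 (SE) for GTPBP2 and -0.21 ± 0.20 for LSM3.

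Libraries held 36717795 to 63896604 reads in gene rows in experiment 1 and 18787172 to 47407746 in experiment 2. The fewest reads of a member in a library were 342 for POLH and 363 for FANCC, where counting error alone is 5.41% and 5.25% of the value. The share of structural RNA rows was 16.9% to 26.3% in the libraries of experiment 1, and in those of experiment 2 it was 1.67% to 5.29%. Epithelial markers were abundant in all libraries (EPCAM, KRT8, KRT18, KRT19 and CDH1, summed over the list 1942 to 4346 RPM), although the intestinal genes CDX1 and VIL1 were near 0 (means of 0.00625 and 0.191 RPM). Markers of blood summed to at most 7.80 RPM and those of fibroblast and endothelium to at most 2.42 RPM. Markers of liver and neuron summed to 10.9 to 468 RPM, nearly all of it SYT1, with ALB, APOA1 and RBFOX3 at means of 0.640, 0.179 and 0.0292 RPM. In 1 library, replicate 2 of Nutlin-3a plus water in experiment 1, 10 rows took 43.5% of reads, against 25.1% to 30.4% in the other libraries of that experiment. Its correlation with replicate 1 across genes was 0.955, against 0.992 to 0.997 in the other groups of experiment 1. Replicates of experiment 2 correlated at 0.933 to 0.946, so by this measure the library stood apart only within experiment 1. Values without it stand beside many of the results that it touches.

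Levels are given as scaled RPM, which are RPM (reads divided by the library's total in gene rows, times 1000000) after scaling between libraries. In these bulk samples a change in the share of cells that make an RNA and a change in RNA per cell cannot be told apart. Per kb of row span, the order in DMSO plus water of experiment 1 was DDB2 (2.00 scaled RPM per kb), XPC (1.49), RRM2B (1.04), POLH (1.00) and FANCC (0.616), and of these neighbours only RRM2B and POLH overlapped between their libraries. In DMSO plus water of experiment 2 the order was RRM2B (2.17 scaled RPM per kb), DDB2 (1.79), XPC (1.59), POLH (0.709) and FANCC (0.188), and the libraries of RRM2B and DDB2, and of DDB2 and XPC, overlapped. Both orders hold for row span only, and levels per exonic base were not taken. The exons of the row's transcript cover 717 bases for DDB2 and 4533 for FANCC. All 20 libraries were scaled together, but the 2 experiments differed in depth and in the share of structural RNA, and levels across them were not tested. The median level over all libraries of an experiment was 91.7 scaled RPM in experiment 1 and 29.9 in experiment 2 for FANCC, and 35.8 scaled RPM in experiment 1 and 85.01 in experiment 2 for RRM2B.

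With Nutlin-3a in the absence of peptide, the RNA of DDB2, XPC and POLH was higher than in DMSO in each replicate set of both experiments, by 1.74-fold, 1.44-fold and 1.59-fold on average. RRM2B and FANCC showed no common direction. None of the 5 passed the test across all genes with an experiment term.

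DDB2 had 106 and 103 scaled RPM in Nutlin-3a plus water of experiment 1, against 47.5 and 48.0 in DMSO plus water. In experiment 2 it had 58.3, 80.7 and 52.5 scaled RPM in Nutlin-3a plus water, against 31.2, 50.8 and 46.3 in DMSO plus water. The groups did not overlap in either experiment, although the lowest Nutlin-3a library and the highest DMSO library of experiment 2 were close. XPC had 88.2 and 78.0 scaled RPM in Nutlin-3a plus water of experiment 1, against 49.7 and 49.9 in DMSO plus water. In experiment 2 XPC had 71.5, 82.0 and 57.6 scaled RPM in Nutlin-3a plus water, against 49.9, 55.9 and 53.8 in DMSO plus water. Here too every Nutlin-3a library lay above every DMSO library of its experiment. POLH had 83.3 and 66.2 scaled RPM in Nutlin-3a plus water of experiment 1, against 38.0 and 38.9 in DMSO plus water. In experiment 2 POLH had 31.0, 43.1 and 37.6 scaled RPM in Nutlin-3a plus water, against 17.4, 27.8 and 36.6 in DMSO plus water. Its groups overlapped in experiment 2, where replicate 3 of the DMSO libraries was above replicate 1 of the Nutlin-3a libraries. Groups without overlap in experiment 1, with Nutlin-3a higher, were found for 9.38% of all genes tested. Over all genes tested, 0.157% had Nutlin-3a libraries above the DMSO libraries without overlap in both experiments, as DDB2 and XPC did.

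RRM2B had 56.2 and 21.1 scaled RPM in Nutlin-3a plus water of experiment 1, against 36.6 and 34.5 in DMSO plus water. In experiment 2 RRM2B had 122, 95.5 and 64.4 scaled RPM in Nutlin-3a plus water, against 85.2, 71.3 and 67.3 in DMSO plus water. The groups overlapped in both experiments, and the lowest value in experiment 1 was in the library that stood apart. FANCC had 88.7 and 63.3 scaled RPM in Nutlin-3a plus water of experiment 1, against 92.3 and 92.7 in DMSO plus water. In experiment 2 FANCC had 20.6, 31.8 and 29.1 scaled RPM in Nutlin-3a plus water, against 18.4, 35.6 and 30.5 in DMSO plus water. Its Nutlin-3a libraries were both lower in experiment 1, as for 15.7% of all genes tested, and the groups overlapped in experiment 2. Between the replicates of Nutlin-3a plus water in experiment 1, replicate 2 minus replicate 1 was -1.39 on the log2 scale for RRM2B and -0.48 for FANCC, against -0.03 for DDB2, -0.18 for XPC, -0.33 for POLH and a median of -0.08 over all genes tested. What this library contributed to the 2 genes' values was not tested beyond leaving it out.

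**Figure D1:**
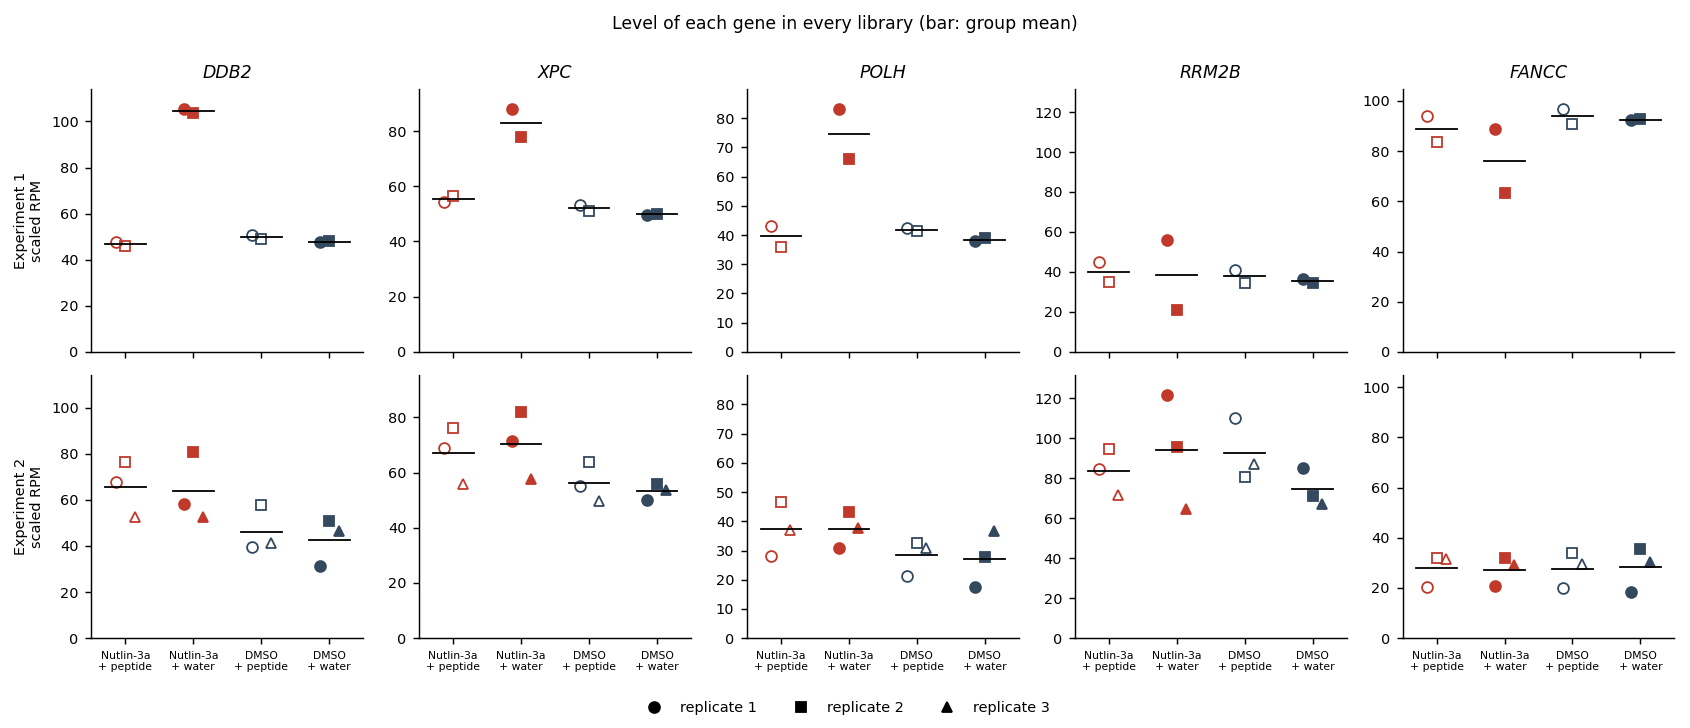
Scaled RPM of each gene (columns) in experiment 1 (top) and experiment 2 (bottom) by condition, with 1 point for each library, its replicate number as the symbol, open symbols for peptide, and a bar at the group mean. In experiment 1 DDB2, XPC and POLH stand high in Nutlin-3a plus water alone (103 and 106 scaled RPM for DDB2), while in experiment 2 these 3 genes have higher means in both Nutlin-3a groups than in both DMSO groups.

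The log2 change from limma with an experiment term was 0.80 ± 0.21 (SE) for DDB2, 0.52 ± 0.13 for XPC and 0.67 ± 0.21 for POLH. It was 0.16 ± 0.21 for RRM2B and -0.13 ± 0.19 for FANCC, and the adjusted p-value over all 15958 genes was 0.9998 for each of the 5. By limma 0 genes were called at an adjusted p under 0.05 (0%), and 100 genes had an unadjusted p under 0.05, 67 of them upward (0.42%). The 3 genes DDB2, XPC and POLH were among these 67. Limma-voom also called 0 genes, with 113 at an unadjusted p under 0.05. With the 5 replicate sets as blocks, limma gave adjusted p-values of 0.111 for DDB2, 0.0719 for XPC and 0.111 for POLH, and again called 0 genes, with 1219 at an unadjusted p under 0.05. Limma-voom with blocks called 9 genes, all upward (0.0564%), and XPC was 1 of them (0.53 ± 0.10, adjusted p = 0.0478), while DDB2 and POLH each had an adjusted p of 0.096.

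Within replicate sets, the log2 difference of Nutlin-3a plus water minus DMSO plus water was 1.14 and 1.10 for DDB2 in experiment 1 and 0.89, 0.66 and 0.18 in experiment 2. For XPC it was 0.82 and 0.64 in experiment 1 and 0.51, 0.55 and 0.10 in experiment 2. For POLH it was 1.12 and 0.76 in experiment 1 and 0.82, 0.63 and 0.039 in experiment 2. All 3 genes were thus above 0 in 5 of 5 sets, as were 2.87% of all genes tested, and in each of them replicate 3 of experiment 2 gave the smallest difference. The same set gave the smallest difference for the p53 targets CDKN1A (0.29) and MDM2 (0.17), which were also above 0 in 5 of 5 sets. RRM2B was above 0 in 3 sets, with 0.61 and -0.70 in experiment 1 and 0.51, 0.42 and -0.065 in experiment 2. FANCC was above 0 in 1 set (0.16) and lay between -0.55 and -0.058 in the others. Without the library that stood apart, the blocked log2 change was 0.68 ± 0.16 for DDB2, 0.49 ± 0.09 for XPC, 0.62 ± 0.14 for POLH, 0.34 ± 0.11 for RRM2B (adjusted p = 0.240) and -0.045 ± 0.06 for FANCC.

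**Figure D2:**
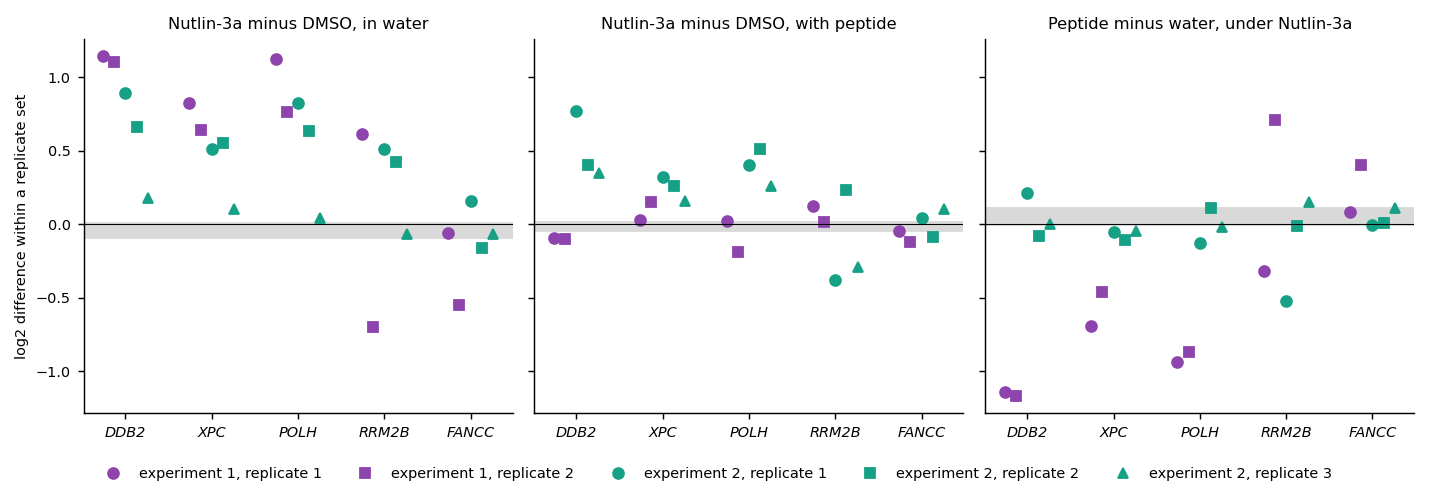
Log2 difference of each gene within each replicate set (symbols for replicates, colours for experiments) for Nutlin-3a minus DMSO in water, for Nutlin-3a minus DMSO with peptide, and for peptide minus water under Nutlin-3a, with a grey band for the range of the median of all genes tested. DDB2, XPC and POLH lie above 0 in all 5 sets on the left, and at -0.46 or lower in both sets of experiment 1 but between -0.13 and 0.21 in experiment 2 on the right.

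Adding the peptide to Nutlin-3a gave lower DDB2, XPC and POLH in experiment 1, whereas in experiment 2 the groups overlapped. Overlap does not show that the peptide made no difference there. DDB2 had 47.5 and 45.8 scaled RPM in Nutlin-3a plus peptide of experiment 1, against 106 and 103 in Nutlin-3a plus water. XPC had 54.3 and 56.6 scaled RPM in Nutlin-3a plus peptide, against 88.2 and 78.0 in Nutlin-3a plus water. POLH had 43.2 and 36.0 scaled RPM in Nutlin-3a plus peptide, against 83.3 and 66.2 in Nutlin-3a plus water. For these 3 of the 5 genes the groups of experiment 1 did not overlap, as for 11.7% of all genes tested in this direction. In experiment 2 DDB2 had 67.7, 76.3 and 52.6 scaled RPM in Nutlin-3a plus peptide, against 58.3, 80.7 and 52.5 in Nutlin-3a plus water. XPC had 69.0, 76.1 and 55.8 scaled RPM in Nutlin-3a plus peptide, against 71.5, 82.0 and 57.6 in Nutlin-3a plus water. POLH had 28.3, 46.5 and 37.1 scaled RPM in Nutlin-3a plus peptide, against 31.0, 43.1 and 37.6 in Nutlin-3a plus water. The groups of all 3 genes overlapped in experiment 2.

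RRM2B had 44.9 and 34.9 scaled RPM in Nutlin-3a plus peptide of experiment 1, between the 56.2 and 21.1 in Nutlin-3a plus water, and 84.8, 94.7 and 71.4 scaled RPM in Nutlin-3a plus peptide of experiment 2, against 122, 95.5 and 64.4 in Nutlin-3a plus water. FANCC had 94.1 and 83.7 scaled RPM in Nutlin-3a plus peptide of experiment 1, against 88.7 and 63.3 in Nutlin-3a plus water. In experiment 2 FANCC had 20.5, 32.0 and 31.5 scaled RPM in Nutlin-3a plus peptide, against 20.6, 31.8 and 29.1 in Nutlin-3a plus water. Both genes overlapped between the groups in both experiments.

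Over both experiments, the log2 change with peptide under Nutlin-3a was -0.44 ± 0.21 (SE) for DDB2, -0.27 ± 0.13 for XPC and -0.37 ± 0.21 for POLH in limma with an experiment term. It was 0.002 ± 0.21 for RRM2B and 0.12 ± 0.19 for FANCC, and the adjusted p-value was 0.9999 for all 5 genes. By limma 0 genes were called (0%), 77 had an unadjusted p under 0.05, and 44 of these were downward (0.276%), with DDB2 among them. Limma-voom called 0 genes, and limma-voom with blocks called 3, none of them a member. With blocks the adjusted p-value was 0.602 for DDB2, XPC and POLH. Within sets, XPC was below 0 in 5 of 5, as were 2.53% of all genes tested, with -0.69 and -0.46 in experiment 1 and -0.051, -0.11 and -0.047 in experiment 2. DDB2 was at -1.14 and -1.17 in experiment 1 and at 0.21, -0.08 and 0.0014 in experiment 2. POLH was at -0.94 and -0.87 in experiment 1 and at -0.13, 0.11 and -0.019 in experiment 2. The replicate set of experiment 1 without the library that stood apart thus gave -1.14 for DDB2, -0.69 for XPC and -0.94 for POLH. Without that library the blocked log2 change over both experiments was -0.32 ± 0.16 for DDB2, -0.23 ± 0.09 for XPC and -0.31 ± 0.14 for POLH. It was -0.18 ± 0.11 for RRM2B (adjusted p = 0.503) and 0.03 ± 0.06 for FANCC (adjusted p = 0.862).

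The change was also taken by experiment, from a fit of 8 group means whose spread was shared by all 20 libraries. With peptide under Nutlin-3a the log2 change was -1.16 ± 0.27 (SE) in experiment 1 and 0.045 ± 0.22 in experiment 2 for DDB2. It was -0.58 ± 0.20 in experiment 1 and -0.068 ± 0.16 in experiment 2 for XPC, and -0.91 ± 0.32 in experiment 1 and -0.013 ± 0.26 in experiment 2 for POLH. The change in experiment 1 minus that in experiment 2 was -1.20 ± 0.34 for DDB2 (limma with 8 group means, adjusted p = 0.9999), -0.51 ± 0.26 for XPC and -0.89 ± 0.41 for POLH. With replicate sets as blocks the difference of DDB2 passed the test (-1.20 ± 0.20, adjusted p = 0.0229), while POLH (adjusted p = 0.0786) and XPC (adjusted p = 0.134) did not. The blocked fit called 39 genes with a lower change in experiment 1 (0.244%) and 15 with a higher one (0.094%), and the fit without blocks called 0, with 164 at an unadjusted p under 0.05. Without the library that stood apart, the blocked difference of DDB2 was -1.20 ± 0.21 (adjusted p = 0.0253), and 25 genes were called in place of 54. For RRM2B and FANCC the difference was 0.33 ± 0.47 and 0.20 ± 0.43 without blocks. The depth, the share of structural RNA and the levels of FANCC and RRM2B also differed between the experiments, and their part in this difference was not tested.

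A fit chosen after the data were seen held 8 group means and the replicate sets as blocks, over all 20 libraries. Its values for experiment 1 alone use a spread shared with experiment 2. For experiment 1 alone, DDB2 (adjusted p = 0.00118), XPC (adjusted p = 0.0199) and POLH (adjusted p = 0.0091) fell with peptide under Nutlin-3a. They were 3 of 445 genes called downward in that fit (2.79% of those tested), and 462 were called upward. Without the library that stood apart, 56 genes were called downward (0.351%) and 8 upward, and DDB2 (adjusted p = 0.00657), XPC (adjusted p = 0.0219) and POLH (adjusted p = 0.0123) were again among the genes that fell. The 1 library left in that group is then assumed to vary like the other groups. In the same fit, for experiment 1 alone, all 3 genes rose in Nutlin-3a plus water against DMSO plus water (adjusted p = 0.00222 for DDB2, 0.0105 for XPC and 0.0145 for POLH), with 52 genes called upward (0.326%). Without the same library they also rose (adjusted p = 0.0073 for DDB2, 0.00635 for XPC and 0.0106 for POLH), with 41 genes called upward (0.257%). For experiment 2 alone in the blocked fit of all 20 libraries, none of the 5 genes passed in either comparison, and 0 genes were called by limma. Of all genes, 1877 had an unadjusted p under 0.05 there for Nutlin-3a and 429 for the peptide under Nutlin-3a.

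**Figure D3:**
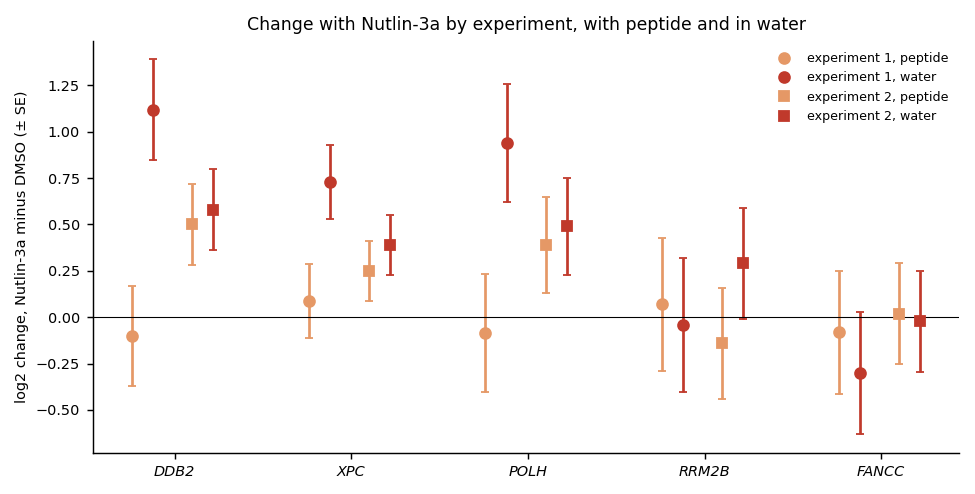
Log2 change of each gene, Nutlin-3a minus DMSO, with peptide and in water, for experiment 1 and experiment 2. Bars show the SE from limma with 8 group means over all 20 libraries. In experiment 1 the change of DDB2 is -0.10 with peptide and 1.12 in water, whereas in experiment 2 it is 0.50 with peptide and 0.58 in water.

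Peptide-treated cells given Nutlin-3a were compared with peptide-treated cells in DMSO. DDB2 had 50.8 and 49.1 scaled RPM in DMSO plus peptide of experiment 1, and 39.6, 57.8 and 41.2 in experiment 2, so that the Nutlin-3a plus peptide libraries were both lower in experiment 1 (20.5% of all genes tested did so) and each higher within its set in experiment 2. The log2 change was -0.10 ± 0.27 (SE) in experiment 1 and 0.50 ± 0.22 in experiment 2. XPC, with 53.3 and 51.0 scaled RPM in DMSO plus peptide of experiment 1 and 55.2, 63.6 and 49.7 in experiment 2, had log2 differences of 0.088 ± 0.20 in experiment 1, where the groups did not overlap (18.1% of all genes tested were higher in this way), and 0.25 ± 0.16 in experiment 2. It was above 0 in 5 of 5 sets, as were 1.62% of all genes tested. POLH, with 42.4 and 41.2 scaled RPM in DMSO plus peptide of experiment 1 and 21.3, 32.6 and 30.9 in experiment 2, had log2 changes of -0.085 ± 0.32 in experiment 1 and 0.39 ± 0.26 in experiment 2. Over both experiments the log2 change was 0.26 ± 0.21 for DDB2, 0.18 ± 0.13 for XPC, 0.20 ± 0.21 for POLH, -0.059 ± 0.21 for RRM2B and -0.021 ± 0.19 for FANCC, with adjusted p-values of 1. By limma and by limma-voom 0 genes were called (0%), 26 had an unadjusted p under 0.05 in limma, and limma-voom with blocks called 7, none of them a member.

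The Nutlin-3a change with peptide minus the Nutlin-3a change with water measures the interaction. It was -0.53 ± 0.29 (SE) for DDB2, -0.34 ± 0.18 for XPC, -0.47 ± 0.30 for POLH, -0.22 ± 0.30 for RRM2B and 0.11 ± 0.27 for FANCC in limma over both experiments, with adjusted p-values of 0.9999. In experiment 1 it was -1.22 ± 0.38 for DDB2, -0.64 ± 0.28 for XPC and -1.03 ± 0.45 for POLH, and in experiment 2 it was -0.075 ± 0.31, -0.14 ± 0.23 and -0.11 ± 0.37. A p-value that misses the threshold in experiment 2 does not show that the response was the same with and without peptide. Without the library that stood apart, the blocked interaction over both experiments was -0.41 ± 0.21 for DDB2, -0.30 ± 0.12 for XPC and -0.42 ± 0.19 for POLH. It was -0.40 ± 0.14 for RRM2B (adjusted p = 0.970) and 0.025 ± 0.08 for FANCC (adjusted p = 0.986). By limma and by limma-voom 0 genes were called (0%), 26 had an unadjusted p under 0.05 in limma, and limma-voom with blocks called 4, none of them a member. In the blocked fit of all 20 libraries that was chosen after the data were seen, DDB2 passed for experiment 1 alone (adjusted p = 0.0381). There 14 genes were called downward (0.0877% of those tested). XPC (adjusted p = 0.247) and POLH (adjusted p = 0.124) did not. Without the library that stood apart DDB2 still passed (adjusted p = 0.0435), with 13 called downward (0.0815%).

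Without Nutlin-3a, none of the 5 genes passed the test with peptide, and their log2 changes were at most 0.22. In DMSO plus peptide against DMSO plus water, the log2 change was 0.10 ± 0.21 (SE) for DDB2, 0.069 ± 0.13 for XPC, 0.10 ± 0.21 for POLH and 0.0055 ± 0.19 for FANCC. The peptide libraries of experiment 1 lay above the water libraries without overlap for DDB2, XPC and POLH, as for 24.7% of all genes tested, and the groups overlapped in experiment 2. RRM2B had the largest change, 0.22 ± 0.21, with 41.2 and 34.6 scaled RPM in DMSO plus peptide of experiment 1, against 36.6 and 34.5 in DMSO plus water. In experiment 2 RRM2B had 110, 80.7 and 87.3 scaled RPM in DMSO plus peptide, against 85.2, 71.3 and 67.3 in DMSO plus water. Its difference was above 0 in 5 of 5 sets, as for 5.86% of all genes tested, with the smallest value 0.0013, and its groups overlapped in both experiments. By limma, by limma-voom and by limma-voom with blocks 0 genes were called (0%), and 16 had an unadjusted p under 0.05 in limma.

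The other genes of the same pathways, taken from lists of textbook membership, had lower log2 changes with Nutlin-3a than DDB2, XPC and POLH. These 3 genes were the highest of the 5 members in this same comparison. Members and lists were also chosen with earlier results of these data known, so this contrast is a description only. Without the 5 genes, 0 of 31 nucleotide excision repair genes, 0 of 19 translesion synthesis genes, 0 of 15 genes of ribonucleotide reductase and dNTP supply and 0 of 27 Fanconi anaemia pathway genes were called by limma in Nutlin-3a plus water against DMSO plus water, and none had an unadjusted p under 0.05 there. With replicate sets as blocks 0 were called too, but 4 excision repair genes, 2 dNTP genes and 1 Fanconi gene were lower with an unadjusted p under 0.05 (4.52% of all genes tested), and 1 Fanconi gene was higher (3.12%). Within sets, 4 excision repair genes, 1 translesion gene, 2 dNTP genes and 1 Fanconi gene were below 0 in 5 of 5, as were 4.51% of all genes tested, while 1 Fanconi gene was above 0 in 5 of 5. Their median log2 changes were -0.089, -0.04, -0.10 and -0.074, against -0.03 over all genes tested. The number above 0 was 5 of 31 excision repair genes, 6 of 19 translesion genes, 3 of 15 dNTP genes and 8 of 27 Fanconi genes, against 41.6% of all genes tested. The highest of these values was 0.10 in excision repair, below the values of XPC and DDB2, and 0.06 in translesion synthesis, below that of POLH.

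Direct partners of the members were checked by name. DDB1, which joins DDB2 to the CUL4 ubiquitin ligase, had a log2 change of -0.055 ± 0.17 (SE) with Nutlin-3a plus water against DMSO plus water. The XPC partners RAD23B and CETN2 had -0.087 ± 0.28 and -0.22 ± 0.13. RRM1, the large subunit of ribonucleotide reductase, had -0.21 ± 0.47, and RRM2, the cell cycle form of the small subunit, had -0.13 ± 0.66. The translesion polymerases POLI and POLK had 0.061 ± 0.19 and -0.04 ± 0.34, and PCNA, the clamp on which POLH works, had -0.04 ± 0.26. The core complex genes FANCE and FANCF had 0.086 ± 0.30 and -0.046 ± 0.35. None of these had an unadjusted p under 0.05 in limma with an experiment term. With blocks CETN2 and RRM1 did (adjusted p = 0.649 for both), and RRM1 was below 0 in 5 of 5 sets and CETN2 in 4. With peptide under Nutlin-3a, CETN2 had 0.28 ± 0.13 (adjusted p = 0.9999 in limma) and was higher in 5 of 5 sets, as were 4.86% of all genes tested.

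Among 14 other genome maintenance genes with a known p53 link, 2 had an unadjusted p under 0.05 in limma in Nutlin-3a plus water against DMSO plus water, both upward (0.42% of all genes tested). One of them, the stress sensor gene GADD45A, had a log2 change of 0.85 ± 0.38 (SE, adjusted p = 0.9998), with means of 26.1 scaled RPM in Nutlin-3a plus water of experiment 1 against 9.26 in DMSO plus water, and of 42.7 in Nutlin-3a plus water of experiment 2 against 34.0 in DMSO plus water. AEN, a p53-induced nuclease gene that did not reach that p, had 0.58 ± 0.33. Both genes were above 0 in 5 of 5 sets (2.87% of all genes tested), and with blocks the adjusted p was 0.0719 for AEN and 0.110 for GADD45A. In the blocked fit 3 of the 14 were higher and 3 lower with an unadjusted p under 0.05. The median over the 14 genes was -0.037, with 6 above 0. With peptide under Nutlin-3a, GADD45A had -0.52 ± 0.38 and AEN -0.32 ± 0.33, and both were below 0 in 5 of 5 sets, as were 2.53% of all genes tested. In that comparison the medians of the other list genes were 0.074 in excision repair (23 of 31 above 0), 0.10 in translesion synthesis (16 of 19), 0.10 in dNTP supply (15 of 15) and 0.072 in the Fanconi pathway (22 of 27), against 0.04 and 60.9% above 0 over all genes tested, and 0 were called. In limma with an experiment term CETN2 was the 1 gene of these lists with an unadjusted p under 0.05, and with blocks 4 excision repair genes and 1 dNTP gene were higher (4.65% of all genes tested) and 1 excision repair gene was lower (3.5%).

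**Figure D4:**
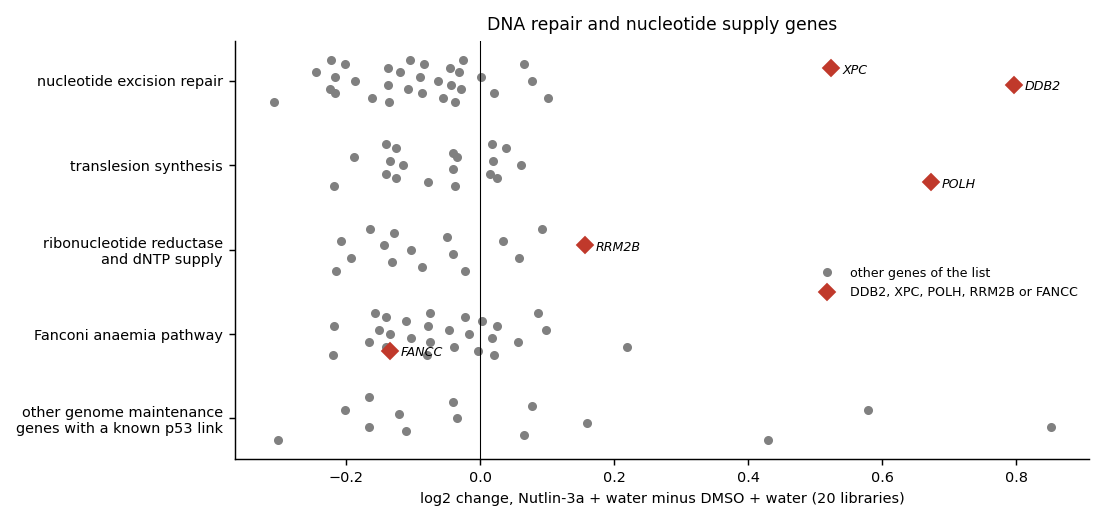
Log2 change of each gene of 5 lists in Nutlin-3a plus water against DMSO plus water over the 20 libraries, with the 5 members as red diamonds and vertical spread within a list for legibility only. XPC (0.52), DDB2 (0.80) and POLH (0.67) stand to the right of all other genes of their lists, and FANCC (-0.13) lies within its list.

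Across the 20 libraries, after the mean of the 4 libraries that share experiment and replicate number was subtracted, the log2 values of DDB2, XPC and POLH followed each other closely. Pearson correlations were 0.96 for DDB2 with XPC, 0.97 for DDB2 with POLH and 0.97 for XPC with POLH, and they lay between 0.94 and 0.97 within the 12 libraries of experiment 2. Of 10710 genes compared, the 3 most like DDB2 were POLH (0.965), XPC (0.959) and the zinc finger gene ZNF79 (0.949). Those most like XPC were MDM2 (0.966), POLH (0.965) and DDB2 (0.959), and those most like POLH were MDM2 (0.969), XPC and DDB2. RRM2B was most like EBLN3, TRIM5 and KLHL12 (0.929 to 0.925) and FANCC most like DENND1A, SCMH1 and SRPK1 (0.954 to 0.947), and neither list held another member. RRM2B correlated with DDB2 at -0.02 over 20 libraries and at 0.34 without the library that stood apart. FANCC correlated with RRM2B at 0.42 over 20 libraries and at 0.02 without that library. With DDB2, FANCC correlated at -0.51 over 20 libraries and at -0.23 without it. The most similar genes were taken over all 20 libraries and were not taken again without that library. These values describe libraries that share treatments and sets, and the centred values are not independent.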

How the data were processed

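The study measured nuclear RNA in 20 libraries of HCT116 cells, in 4 conditions and 2 experiments. Per the submitters' processing notes, the tools were HISAT2, bedtools and limma and the build was hg38, with no versions or roles given, and the strand setting is not given in the sources used here. The deposited values are a signal per gene row: reads per 1000000 row reads divided by the stop minus a thousandth of the start. Multiplied back, each column summed to 1000000, and 100% of values were whole reads (tolerance 0.001).

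From these, RPM were scaled by a trimmed mean of M values (30% of log ratios and 5% of abundances trimmed) and tested with limma 3.58.1 in R 4.3.3, with trend, on log2(scaled RPM + 0.5). Genes needed a mean of 0.5 RPM. The model held condition and experiment. The Benjamini-Hochberg adjustment covered all genes tested, and the threshold was 0.05. Fold changes on this scale understate changes of low genes. The procedure was tested on simulated data, with an outcome not given here. The simulated noise was drawn separately for each gene and library, without replicate sets, so it cannot show how the test performs on these data. Plots used Python 3.11.15 with matplotlib 3.10.9.

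Members and lists were chosen with earlier results of these data known. The rule for named genes took the 5 members, CDKN1A, MDM2, up to 4 genes of each list by p in 2 comparisons, complex partners, and the 3 genes most like each member (at least 5 RPM); not all are reported here. GTPBP2 and LSM3 were added for their overlap.

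Replicate sets join libraries with the same number within an experiment. This rests on the values alone. Over 12 pairs of such libraries in experiment 1, deviations from group means had correlations of 0.286 or more, up to 0.586. Each condition there has 2 libraries, whose deviations mirror each other. Both replicate numbers therefore give the same correlations, and the 12 are not separate values. Over 18 pairs in experiment 2 the correlations were 0.877 or more, up to 0.940. A fit with the 5 sets as blocks stands beside the other where it matters. Other alternatives were scaling, filters, pseudocounts, limma-voom, structural rows left out, each experiment alone, no experiment term and each library left out. Values for an experiment alone are contrasts in a fit of all 20 libraries, so their spread was shared by both experiments.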

Additional observations from a re-analysis of the deposited data

Results flagged for a closer look

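DDB2 was the 1 member whose difference between the experiments passed a test of the difference itself, and only in fits with replicate sets as blocks. With peptide under Nutlin-3a against Nutlin-3a plus water, its log2 change in experiment 1 minus that in experiment 2 was -1.20 ± 0.20 (SE, limma with replicate sets as blocks, adjusted p = 0.0229). The difference within sets was negative in 2 of 2 sets of experiment 1 (-1.14 and -1.17) and in 1 of 3 sets of experiment 2. Without blocks the same difference had an adjusted p of 0.9999 in limma, and over the fits that left out 1 library each it lay between -1.39 and -1.09. The difference was -0.89 for POLH and -0.51 for XPC, in the same direction, and did not pass with or without blocks. DDB2 was not tested against these genes.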

How the results depend on the processing

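With all libraries or another model, 476 results of single members kept their direction and their side of the threshold, 17 passed only under the alternative and 32 turned round. Most of the 17 came from fits of experiment 1 alone with the block, which were added after the data were seen. With 1 library left out, 677 kept their direction and their side of the threshold and 23 turned round. DDB2, XPC and POLH kept their direction in Nutlin-3a plus water against DMSO plus water in every alternative (log2 change of 0.58 to 1.12, 0.39 to 0.82 and 0.49 to 1.06), and with 1 library left out they lay at 0.68 to 0.93, 0.45 to 0.64 and 0.52 to 0.82. With peptide under Nutlin-3a, leaving out 1 library gave -0.56 to -0.33 for DDB2, -0.37 to -0.20 for XPC and -0.51 to -0.25 for POLH. In every fit with 1 library left out and an experiment term, 0 genes were called in all comparisons.

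The replicate block changed the call of DDB2 for the difference between experiments (-1.20) and no other call of a member in limma over both experiments. With the block and limma-voom, the number of genes called was 9 for Nutlin-3a plus water against DMSO plus water, 3 for peptide under Nutlin-3a, 7 for Nutlin-3a with peptide and 4 for the interaction. With the block and without Nutlin-3a plus water replicate 2 of experiment 1, 5 genes were called for Nutlin-3a in water. In experiment 1 alone with the block, added after the data were seen, 58, 907, 27 and 18 genes were called in these 4 comparisons, and 1 for the peptide without Nutlin-3a. Without that library as well, also added later, the counts were 43, 64, 80, 16 and 3, and the median of the 5 members was 0.82 for Nutlin-3a in water, -0.66 for peptide under Nutlin-3a and -0.73 for the interaction. In experiment 1 alone without the block 1 gene was called for Nutlin-3a with peptide, for the interaction and for the peptide without Nutlin-3a, and with no filter 1 gene was called for Nutlin-3a with peptide.

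Signs turned as follows, all of values that did not pass a test, and the cause was not tested. For RRM2B the change was -0.042 for Nutlin-3a in water in experiment 1 alone, with or without the block. With peptide under Nutlin-3a it was -0.0046 without scaling, -0.003 with median-of-ratios factors, -0.01 with a pseudocount of 5, -0.0071 without structural rows, -0.0042 with the block and limma-voom, -0.18 with the block without the library named above, -0.38 in experiment 1 alone without it and -0.13 in experiment 2 alone, with or without the block. DDB2 was at 0.045 there in experiment 2 alone, with or without the block. FANCC with peptide without Nutlin-3a was at -0.012 without scaling, -0.0085 with median-of-ratios factors and -0.0051 in experiment 2 alone. For Nutlin-3a with peptide, all fits of experiment 1 alone gave -0.10 for DDB2, -0.085 for POLH, 0.069 for RRM2B and a median of the 5 members of -0.082, and experiment 2 alone gave 0.02 for FANCC. The interaction of RRM2B was 0.11 in experiment 1 alone, with or without the block. The difference of RRM2B between experiments was 0.25 for Nutlin-3a in water and -0.25 for peptide under Nutlin-3a with the block without that library.

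Some results turned round in 1 to 5 of the 20 fits with 1 library left out. The values of these results over all 20 fits ranged from -0.0035 to 0.38 for RRM2B with Nutlin-3a in water. For RRM2B with peptide under Nutlin-3a they ranged from -0.22 to 0.16. For peptide without Nutlin-3a they ranged from -0.017 to 0.17 for DDB2, from -0.044 to 0.24 for POLH and from -0.15 to 0.13 for FANCC. For Nutlin-3a with peptide they ranged from -0.13 to 0.017 for RRM2B and from -0.15 to 0.088 for FANCC, and for the interaction of FANCC from -0.012 to 0.27. The difference between experiments ranged from -1.03 to 0.36 for RRM2B with Nutlin-3a in water, and with peptide under Nutlin-3a from -0.37 to 1.02 for RRM2B and from -0.037 to 0.45 for FANCC. Depth set a counting error of at most 5.41% on a member's value in a library.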
